A study of Arabidopsis thaliana with 2 samples.

Results

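A CpG site reads the same on both strands of DNA, so each site holds a pair of cytosines, 1 per strand, and the likeness of the members of such pairs was measured in *ibm1-1* leaves of *Arabidopsis thaliana*. A pair was a plus-strand CpG cytosine at position p and a minus-strand CpG cytosine at position p + 1 of the nuclear genome, and it was kept where both cytosines had at least 8 reads. This gave 1156558 of 5927227 pairs over both libraries, 509885 of 3143370 in Ler-0 (16.2%) and 646673 of 2783857 in Col-0 (23.2%). The methylation level of a cytosine was the percentage of its reads called methylated, and each cytosine was placed under 20%, at 20-80% or over 80%.

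The 2 bisulfite libraries came from rosette leaves of 3-week-old, first generation *ibm1-1* homozygous plants, 1 library from Ler-0 and 1 from Col-0. Both groups carried the same mutant allele and were grown on plates at 21 °C with 16 h light and 8 h dark. The Ler-0 line had been made by 4 backcrosses of the Col-0 mutant line to Ler-0, and how much Col-0 sequence it still held was not examined here. There was 1 library for each ecotype and wild type was not analysed here, so no difference between the ecotypes or from wild type was tested, and every test below compares reads within 1 library.

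CpG methylation is copied at each round of replication: DNA that carries the mark only on the parental strand is bound by the VARIANT IN METHYLATION (VIM) proteins, and methyltransferase 1 (MET1) adds the mark to the daughter strand. A mark kept in this way is present on both strands, unlike methylation of CpHpH (H is A, C or T), which has no partner cytosine. IBM1 removes methyl groups from lysine 9 of histone 3 in gene bodies, and without it the loop of CHROMOMETHYLASE 3 (CMT3) and KRYPTONITE (KYP) methylates CpHpG sites in many genes.

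The sites on which the comparisons turn are shown as 30-base windows of TAIR10, with the CpG in capitals. The first 4 had all 4 cytosines read in both ecotypes and lay in opposite classes in Ler-0 and in Col-0 on both strands. They are those with the most reads on the shallowest cytosine, 2 for each direction, and were picked after their values had been seen.
*BIG* (AT3G02260), coding sequence, chr3:443775-443804, plus strand: gttgtactcttctcCGgagatcaggggatt
AT1G10820, coding sequence, chr1:3602160-3602189, plus strand: taaattaccttgcaCGcagagaggttgtaa
*SADHU6-1* (AT3G02515), pseudogene, chr3:525643-525672, plus strand: tcggtcttgagctgCGcccacggcggaagt
*CPSF73-I* (AT1G61010), coding sequence, chr1:22476330-22476359, plus strand: ttacatcagtgaagCGtttctcacgaatat

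Pairs whose cytosines lay in opposite classes, 1 under 20% and its partner over 80%, were rare, and many of those of Col-0 shared a sequence. The next 3 windows are such pairs of Col-0, all intergenic and given on the minus strand, and show the shared run aagtccgtatga at or beside the CpG.
Site 1, chr4:2958013-2958042, minus strand: gtgtagccgaagtcCGtatgagtctttggc
Site 2, chr4:2958020-2958049, minus strand: tttcatggtgtagcCGaagtccgtatgagt
Site 3, chr4:2926049-2926078, minus strand: tttcatggtgcagcCGaagtccgtatgagt

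Both libraries had a median of 15 reads on each strand at the kept pairs, from 313387873 cytosine calls in Ler-0 and 371653818 in Col-0. Kept pairs were more methylated than those below the read minimum: the pooled level of the kept pairs was 68.0% in Ler-0 and 59.3% in Col-0, against 32.0% in Ler-0 and 28.6% in Col-0 at pairs with 1 to 7 reads on the shallower strand. The shares below therefore describe the covered sites and not the genome, and the part that coverage had in them was not tested. In the chloroplast, where CpG sites carry little or no methylation, the pooled level was 1.35% on the plus strand and 1.44% on the minus strand in Ler-0, and 1.35% on the plus strand and 1.46% on the minus strand in Col-0.

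Both cytosines of a pair lay in the same class at 92.8% of pairs in Ler-0 (95% Wilson interval 92.7 to 92.8%) and at 89.0% in Col-0 (89.0 to 89.1%). These and all later intervals cover counting error only, since reads amplified without molecular identifiers are not independent molecules and 1 library holds no spread between plants. In Ler-0, 54.6% of pairs were over 80% on both strands, 35.7% were under 20% on both, and 2.47% were at 20-80% on both. In Col-0, 42.1% were over 80% on both strands, 43.2% were under 20% on both, and 3.74% were at 20-80% on both. Most of the remainder lay in neighbouring classes: 6.04% of pairs in Ler-0 and 9.80% in Col-0 had a cytosine at 20-80% and a partner over 80%, and 1.17% in Ler-0 and 1.16% in Col-0 had a cytosine under 20% and a partner at 20-80%. The plot of the levels on the strands shows the pairs gathered in both corners of the diagonal, with the off-diagonal corners nearly empty.

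**Figure D1:**
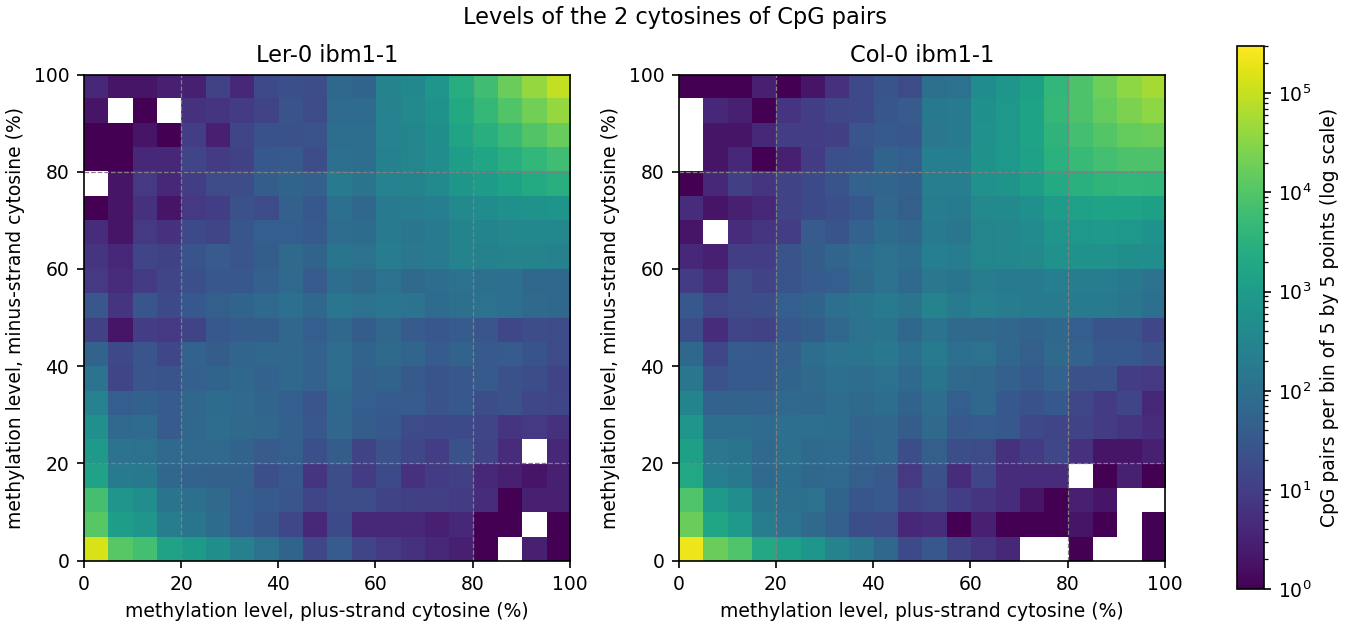
Methylation level of the plus-strand cytosine (x axis, percent) and of its minus-strand partner (y axis, percent) for the 509885 pairs of Ler-0 and the 646673 pairs of Col-0, coloured by the number of pairs in each bin on a log scale; dashed lines mark 20% and 80%, and a level of exactly 80% is drawn above its line although its class is 20-80%. Pairs fill the lower left and upper right corners in both ecotypes, and 58 pairs in Ler-0 and 41 in Col-0 lie in opposite classes in the other corners.

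Opposite classes were seen at 58 pairs in Ler-0 (0.0114%, interval 0.00880 to 0.0147%) and at 41 in Col-0 (0.00634%, interval 0.00467 to 0.00860%). The plus strand was the methylated one at 30 of the 58 pairs of Ler-0 and at 15 of the 41 pairs of Col-0. Given a plus-strand cytosine over 80%, its partner was also over 80% at 94.7% of pairs in Ler-0 and at 89.6% in Col-0, and given a plus-strand cytosine under 20%, its partner was also under 20% at 98.4% in Ler-0 and at 98.6% in Col-0. The less methylated strand had more reads than its partner at 37 of the 58 pairs of Ler-0 and at 30 of the 41 pairs of Col-0. A plus-strand cytosine at 20-80% shared its class with its partner at 40.6% of pairs in Ler-0 and at 40.5% in Col-0.

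The levels on the strands differed somewhat more than counting of the reads gives. The difference within a pair had a root mean square of 8.72 points in Ler-0 and 9.22 points in Col-0, where binomial counting of the reads alone would give 7.67 points in Ler-0 and 8.21 points in Col-0, a ratio of variances of 1.29 in Ler-0 and 1.26 in Col-0. Within a pair the difference had a median absolute size of 3.45 points in Ler-0 and 3.63 points in Col-0, and 82.7% of pairs in Ler-0 and 79.8% in Col-0 lay within 10 points of their partner. The share in the same class moved with the depth of the shallower strand: it was 91.8% in Ler-0 and 89.5% in Col-0 at 8 to 9 reads, 96.1% in Ler-0 and 88.6% in Col-0 at 30 to 49 reads, and 89.9% in Ler-0 and 83.6% in Col-0 at 50 or more. The strands had nearly equal means over all pairs: the mean level was 59.1% on both strands in Ler-0, and 50.4% on the plus strand and 50.5% on the minus strand in Col-0.

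In Col-0, where the annotation could be applied, 382558 pairs lay in protein-coding genes, 153672 in pseudogenes and transposable element genes and 102110 between genes. Pairs of protein-coding genes shared their class at 93.6%, those of pseudogenes and transposable element genes at 82.3% and intergenic ones at 82.0%. The groups had different mixtures of classes: 66.0% of pairs in protein-coding genes were under 20% on both strands and 24.98% over 80% on both, while in pseudogenes and transposable element genes 3.83% were under 20% on both and 74.2% over 80% on both. Pairs with a cytosine at 20-80% and a partner over 80% made up 4.80% in protein-coding genes, 17.5% in pseudogenes and transposable element genes and 17.1% between genes. Opposite classes were seen at 7 pairs in protein-coding genes (0.00183%), 4 in pseudogenes and transposable element genes (0.00260%) and 30 between genes (0.0294%). Within protein-coding genes the share of pairs in the same class was 93.7% in coding sequence, 95.1% in UTRs and 92.3% in introns.

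The class mixture differed along protein-coding genes. With each protein-coding gene divided into 20 bins from start to end, the share of pairs over 80% on both strands was lowest in bin 2 (4.86%) and highest in bin 14 (36.2%). Across the same bins the mean of the sense minus the antisense level stayed between -0.243 and 0.142 points. Over the 378760 pairs in 1 protein-coding gene, the mean level was 30.2% on the sense strand and 30.3% on the antisense strand, a difference of -0.0802 points (interval -0.103 to -0.0577), with the same sign on all 5 chromosomes. The difference was -0.404 points in introns (-0.480 to -0.328) and -0.0447 points in coding sequence (-0.0694 to -0.0201), and in UTRs its interval included 0. With calls pooled over pairs, so that deep pairs weigh more, the sense strand was the higher at 38.2%, against 36.1% for the antisense strand.

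Partners were less often in opposite classes than neighbouring sites on the same strand, but the share in the same class did not set them apart at short distances. Partners shared their class at 92.8% in Ler-0 and 89.0% in Col-0, while next cytosines on the same strand did so at 93.9% in Ler-0 and 92.1% in Col-0 at 2 bp, at 91.3% in Ler-0 and 89.2% in Col-0 at 6 to 10 bp, and at 81.6% in Ler-0 and 76.7% in Col-0 at 21 to 50 bp. Next cytosines on the other strand did so at 92.7% in Ler-0 and 90.7% in Col-0 at 2 bp. Close cytosines on 1 strand can be called from the same reads, while partners are called from reads of different strands. The sites compared also differ, since partners were taken over all pairs and neighbours at 2 bp over far fewer. The part of either was not tested. At the closest spacing, where the next pair starts 2 bp away, the next cytosine on the same strand was in the opposite class at 0.774% of 13957 comparisons in Ler-0 and at 0.492% of 17464 in Col-0, against 0.0114% for the partner in Ler-0 and 0.00634% in Col-0. At 21 to 50 bp the share was 8.86% in Ler-0 and 7.77% in Col-0, and beyond 200 and up to 500 bp it was 18.4% in Ler-0 and 16.6% in Col-0. Pearson's r between levels was 0.981 for partners in Ler-0 and 0.979 in Col-0, 0.964 in Ler-0 and 0.969 in Col-0 for neighbours at 2 bp, and 0.547 in Ler-0 and 0.557 in Col-0 beyond 200 and up to 500 bp. These correlations run over sites of 1 library, which share its depth and are not independent. A neighbour on the other strand was as often in the opposite class as one on the same strand, with 8.91% in Ler-0 and 7.77% in Col-0 at 21 to 50 bp.

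**Figure D2:**
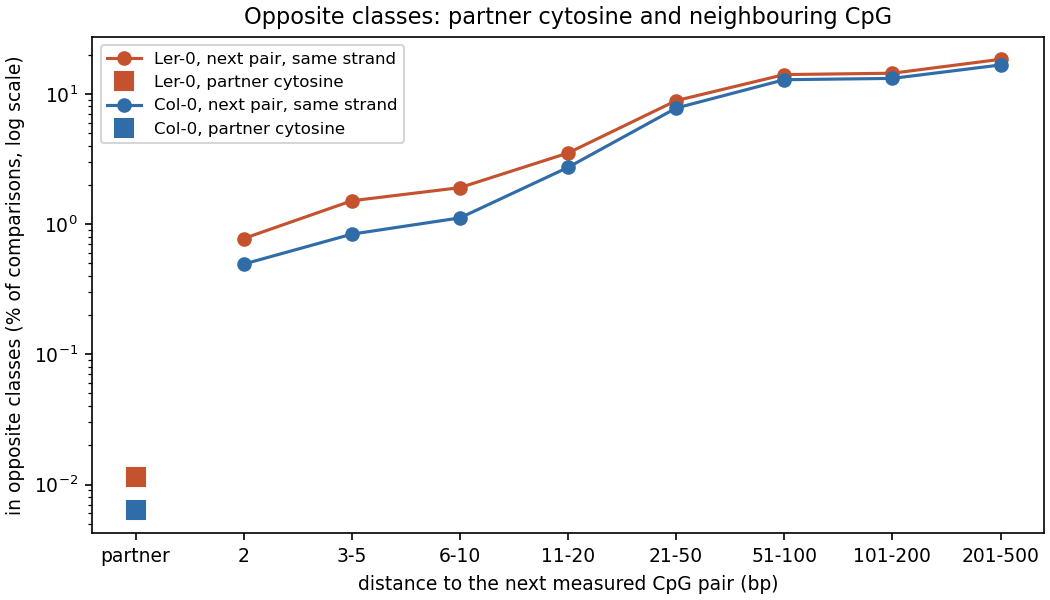
Percentage of comparisons in opposite classes (y axis, log scale) for the partner cytosine (squares) and for the next measured CpG pair on the same strand (circles, by distance in bp) in Ler-0 and Col-0. The partner lies at 0.0114% in Ler-0 and 0.00634% in Col-0, below every distance, and the share grows to 18.4% in Ler-0 and 16.6% in Col-0 beyond 200 and up to 500 bp.

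Some methylated pairs stood alone. Among pairs over 80% on both strands with a measured pair within 50 bp on each side, 597 of 151945 in Ler-0 (0.393%) and 532 of 153762 in Col-0 (0.346%) had both of those neighbours under 20% on both strands. In Col-0, 522 of the 532 lay in protein-coding genes, where they made up 1.19% of 43909 such pairs, 6 lay in pseudogenes and transposable element genes, and 3 between genes. The reverse pattern, an unmethylated pair between methylated ones, was seen at 1974 pairs in Ler-0 (2.50%) and 1552 in Col-0 (1.16%).

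Sites that could be matched between the ecotypes set the difference between strands beside the difference between ecotypes. A pair was called homologous where its 81-bp window, with A and T written as 1 letter, occurred once in each genome. Of 1759993 such pairs, 210738 had at least 8 reads on all 4 cytosines. Partners shared their class at 94.6% of them in Ler-0 and 91.7% in Col-0, whereas Ler-0 and Col-0 shared it at 83.0% on the plus strand and 83.0% on the minus strand. The level differed by a root mean square of 7.59 points between the strands of Ler-0, 8.30 points between the strands of Col-0, and 29.6 points between Ler-0 and Col-0 on the plus strand.

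At 19840 homologous pairs (9.41%) the cytosines of Ler-0 and Col-0 lay in opposite classes on at least 1 strand. At 15562 of these (78.4%) they did so on both strands: 8250 were methylated over 80% in Ler-0 while under 20% in Col-0, and 7312 were under 20% in Ler-0 while over 80% in Col-0. Opposite directions on the strands would need opposite classes within both libraries, which no homologous pair had, so the shared direction is no separate result. Of the 4278 pairs that did so on 1 strand only, 81 had a partner in the same class in both ecotypes. Across pairs, the Ler-0 minus Col-0 difference on the plus strand followed that on the minus strand with r = 0.938, again over sites that share their libraries. Protein-coding genes held 18870 of the 19840 pairs (11.6% of their homologous pairs), pseudogenes and transposable element genes held 603 (2.10%) and intergenic sequence 298 (1.76%).

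**Figure D3:**
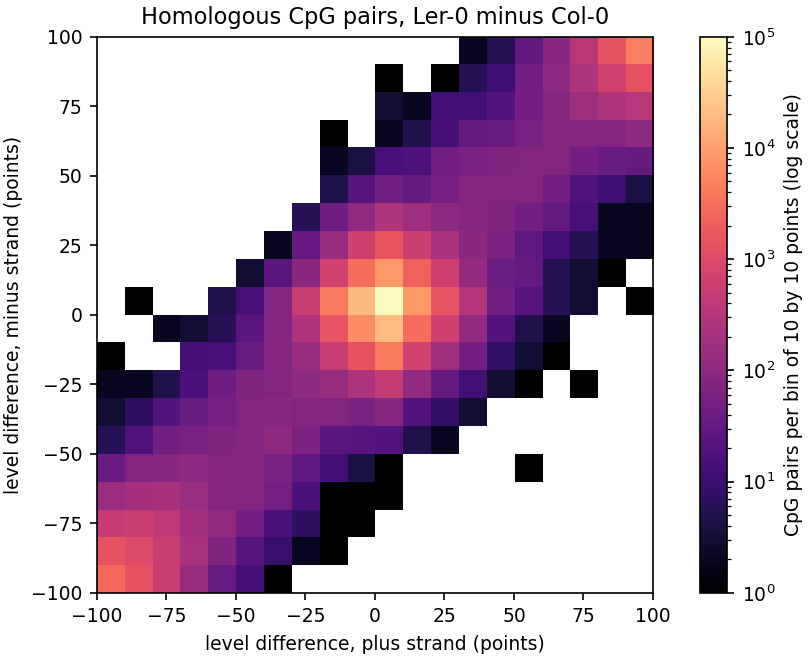
Difference in methylation level, Ler-0 minus Col-0 in points, on the plus strand (x axis) and on the minus strand (y axis) for the 210738 homologous pairs, coloured by the number of pairs in each bin on a log scale. Pairs lie along the diagonal, with 8250 pairs over 80% on both strands in Ler-0 but under 20% in Col-0 toward the upper right and 7312 of the reverse toward the lower left.

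The sites printed first show this read by read. In *BIG*, which encodes a very large protein needed for auxin transport, 53 of 53 plus-strand reads and 60 of 60 minus-strand reads were methylated in Ler-0, against 7 of 56 and 2 of 55 in Col-0. In AT1G10820, 56 of 56 plus-strand reads and 56 of 58 minus-strand reads were methylated in Ler-0, against 6 of 56 and 0 of 47 in Col-0. Both sites were thus full on both strands in Ler-0 and nearly empty on both in Col-0. The reverse held in *SADHU6-1*, a remnant of the Sadhu family of retroposons, with 7 of 49 plus-strand and 4 of 48 minus-strand reads methylated in Ler-0, against 63 of 69 and 57 of 61 in Col-0. In *CPSF73-I*, an endonuclease subunit of the complex that cleaves pre-mRNA 3′ ends, 0 of 54 plus-strand and 2 of 50 minus-strand reads were methylated in Ler-0, against 44 of 45 and 45 of 49 in Col-0. With 1 library for each ecotype, differences of the ecotypes and differences of the plants sampled cannot be told apart. *BIG* and *SADHU6-1* lie on the same chromosome as *IBM1*, whose mutant allele came from Col-0. Whether the Ler-0 line held Col-0 sequence at these sites was not examined.

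No homologous pair was in opposite classes in both ecotypes. Each library had 1 homologous pair in opposite classes (0.000475%), and 0 of 210738 were so in both, which allows a share of up to 0.00142%. The pair of Ler-0, at chr2:6406088-6406117 between genes, had 3 of 18 plus-strand and 9 of 11 minus-strand reads methylated in Ler-0, against 39 of 51 and 13 of 15 in Col-0. The pair of Col-0, at chr5:11756661-11756690 between genes, had 11 of 11 minus-strand and 4 of 13 plus-strand reads methylated in Ler-0, against 19 of 23 and 4 of 36 in Col-0. The minus strand was the higher at this site in both libraries, although Ler-0 stayed outside the opposite classes. The site holds the repeated 12-base run described below, and the part that reads of other copies had in its levels was not tested.

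A difference between the strands of each pair was tested on its reads by a two-sided exact test of Fisher, with p-values adjusted after Benjamini and Hochberg for the number of pairs in the library and called under 0.05. The test called 178 pairs in Ler-0 (0.0349%) and 794 in Col-0 (0.123%). At an unadjusted p under 0.05 there were 6637 pairs in Ler-0 (1.30%) and 11555 in Col-0 (1.79%). Of the 178 pairs of Ler-0, 92 were higher on the plus strand, as were 291 of the 794 pairs of Col-0, and the median absolute difference was 53.9 points in Ler-0 and 22.8 points in Col-0. Of the pairs in opposite classes, 28 of 58 in Ler-0 and 30 of 41 in Col-0 were called. The classes rest on the same counts as the test, and all 58 and all 41 had an unadjusted p under 0.05. Their calls therefore give no separate support for the classes.

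The called pairs were deeply read and often lay in repeated sequence. They had a median of 104 reads in Ler-0 and 776.5 in Col-0 over both strands, against 32 in Ler-0 and 33 in Col-0 at all pairs. Their 81-bp window was unique in its genome at 75.3% of the called pairs in Ler-0 and 49.1% in Col-0, against 95.6% in Ler-0 and 96.7% in Col-0 at all pairs. The less methylated strand was the deeper one at all but 57 of the 178 called pairs in Ler-0 and at 592 of 794 in Col-0, and another called pair lay within 200 bp at 106 pairs (59.6%) in Ler-0 and 614 (77.3%) in Col-0. What part depth, repeated copies and unequal strand coverage had in the calls was not tested. Without the deepest 1% of pairs, 71 calls were left in Ler-0 and 53 in Col-0.

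In Col-0 the calls were gathered in a few places. Of 240 windows of 500 kb, 205 held none, and 6 held 629 of the 794 calls (79.2%). The window at chr3:14000001-14500000 held 293 and the one at chr2:1-500000 held 106, while the other four held 47 to 85 each. Outside these 6 windows, 165 of 611039 pairs were called (0.0270%). By feature, 179 pairs were called in protein-coding genes (0.0468%), 36 in pseudogenes and transposable element genes (0.0234%), 454 between genes (0.445%) and 125 in genes of other kinds (1.77%), to be read against 0.123% over all pairs.

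The pairs in opposite classes of Col-0 also shared a repeated sequence. The 12-base run most common in their 30-base windows, aagtccgtatga on 1 strand and tcatacggactt on the other, was present in 13 of 41 (31.7%), against 407 of all 646673 pairs (0.0629%). The run was found after the pairs had been seen and was searched on both strands; it occurred 816 times in the nuclear chromosomes, and neighbouring copies on 1 strand lay most often 178 bp apart (222 of 806 distances). At all 13 pairs the strand that carried aagtccgtatga was the one over 80%. Of the 407 pairs with the run, 53.3% were in the same class, 152 were at 20-80% on both strands, and 73 (17.9%) were called.

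At site 1 above, the printed strand had 13 of 14 reads methylated and the other strand 8 of 109 (adjusted p = 7.2e-08, Fisher's exact test). At site 2, which lies 7 bp away and overlaps it, the counts were 18 of 22 and 6 of 109 (adjusted p = 6.3e-10, Fisher's exact test). At site 3 they were 10 of 10 and 2 of 54 (adjusted p = 1.2e-06, Fisher's exact test). The sites were picked for their opposite classes, which rest on the same counts, so these p-values give no separate support. In each case the methylated strand was the one with few reads, and over the 13 pairs the strand with aagtccgtatga had a median of 14 reads and the other strand 37. The 81-bp window was unique in TAIR10 at 8 of the 13 pairs, and the part that reads of other copies had was not tested.

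Among genes with at least 30 pairs, those with called strand differences were few. Of 3347 protein-coding genes 15 held a called pair (0.448%) and 1 held a pair in opposite classes, and of 1625 pseudogenes and transposable element genes 23 held a called pair (1.42%) and 2 a pair in opposite classes. The highest share was in AT3G41762, with 41 of 94 pairs called (43.6%), a median of 1417.5 reads on the plus strand and 1047.5 on the minus strand, and 28.7% of its windows unique. It was followed by AT2G01008 with 52 of 167 pairs, AT2G08986 with 30 of 144 and AT1G40104 with 9 of 78. In these 4 genes 28.7% to 53.8% of the windows were unique, and the part that other copies had in their reads was not tested.

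*MEE38*, named for arrest of embryo development in mutants, had unique windows throughout. It had 12 of 111 pairs called and 2 in opposite classes. At the pair 178 bp from its start, 16 of 102 sense-strand reads and 7 of 8 antisense reads were methylated, and at 1520 bp the counts were 33 of 423 and 18 of 20. The sense strand was the lower and the deeper one at both. Over the gene the medians were 42 reads on the plus strand, its sense strand, and 27 on the minus strand. The part that uneven depth had in these pairs was not tested. The other 5 of the 10 genes with the highest shares had 1 to 4 called pairs each, AT2G07981 with 4 of 43, *PRSL1* with 1 of 32, AT2G07806 with 2 of 72, AT2G07662 with 1 of 37 and AT5G15420 with 1 of 38. Among pseudogenes and transposable element genes, AT1G43750 led with 3 of 58 pairs called, of which 2 were also in opposite classes, followed by AT4G06587 with 2 of 49, AT2G07717 and AT3G43156 with 1 of 31 each, and AT2G07682 with 2 of 64.

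Pairs at 20-80% on both strands numbered 12596 in Ler-0, where their median level was 61.8%, and 24209 in Col-0, where it was 66.5%. Of their windows 79.4% in Ler-0 and 88.6% in Col-0 were unique. In Col-0 the genes with the highest shares included AT2G07629 (32 of 32 pairs), AT2G07667 (43 of 44) and AT2G07798 (33 of 41), all on chromosome 2 between 3312873 and 3366661. That stretch holds sequence also present in the mitochondrial genome: 1252 nuclear pairs of Col-0 had a window that also occurs there, 1219 of them on chromosome 2 between 3239104 and 3509662, and 777 (62.1%) were at 20-80% on both strands. They made up 3.21% of all such pairs, and the part that mitochondrial reads had in their levels was not tested.

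Unique sequence also held genes with intermediate levels on both strands. *LHCA2*, a light-harvesting protein of photosystem I, had 24 of 35 pairs at 20-80% on both strands in Col-0, between 671 and 1461 bp from its start, with mean levels of 61.8% on the sense and 57.8% on the antisense strand. *LOX2*, a chloroplast lipoxygenase of jasmonate synthesis, had 23 of 40, between 319 and 3721 bp, with means of 63.9% on the sense and 57.7% on the antisense strand. Over the homologous pairs of *LHCA2*, 8 of 21 were at 20-80% on both strands in Ler-0 and 17 of 21 in Col-0. Over those of *LOX2*, 10 of 25 were so in Ler-0 and 16 of 25 in Col-0, so that both genes had intermediate pairs in both ecotypes.

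The 5 protein-coding genes with the highest shares of pairs over 80% on both strands were AT1G25180 (35 of 35 pairs, none with a unique window), AT3G14670 (30 of 30), AT3G27980 (38 of 39), AT1G25112 (33 of 34, none with a unique window) and AT4G26730 (31 of 32). Their mean levels lay between 93.6% and 97.9% on each strand.

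Over 19 genes that set, maintain or remove these marks or are silenced by them, 439 pairs were measured in Col-0. Of these 276 were under 20% on both strands, 117 over 80% on both, 14 at 20-80% on both and 0 in opposite classes. Partners shared their class at 92.7% of them, close to the 93.6% of all pairs in protein-coding genes, where 66.0% were under 20% and 24.98% over 80% on both strands. *IBM1* itself (chr3:2425884-2433113, plus strand) had 33 pairs, of which 25 were under 20% and 8 over 80% on both strands. The 8 lay between 1207 and 5653 bp from its start, with 81.8 to 100% on the sense and 82.6 to 100% on the antisense strand, and the 25 others reached at most 12.5% on the sense and 9.52% on the antisense strand. No pair of *IBM1* lay between the classes. Of its 10 homologous pairs, 7 were under 20% and 3 over 80% on both strands in Ler-0, and the same counts were found in Col-0. The Ler-0 line had received its *ibm1-1* allele from the Col-0 mutant line. At this gene the counts may thus compare Col-0 sequence with itself, which was not examined.

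Among the genes that maintain CpG methylation, the 6 measured ones had 111 pairs with 86 under 20% and 13 over 80% on both strands. *MET1* had 16 of 20 pairs under 20% on both strands and 1 over 80%, and *CHR1*, also called *DDM1*, the chromatin remodeller that gives access to heterochromatin, had 4 and 4 of 8. At the 19 homologous pairs of *MET1*, 9 were under 20% and 5 over 80% on both strands in Ler-0, against 15 and 1 in Col-0. In the loop of CpHpG methylation, 6 genes had 143 pairs with 73 under 20% and 53 over 80% on both strands. *CMT3* had all 10 pairs under 20%, while *SUVH5*, a histone methyltransferase, had 19 of 32 over 80% and 10 under 20%. The 4 demethylase genes had 147 pairs with 94 under 20% and 45 over 80% on both strands. Among them, *DME* had 38 of 71 pairs under 20% and 32 over 80% on both strands, the methylated group between 2580 and 8484 bp from its start, and *DML1*, also called *ROS1*, had 41 of 59 under 20% and 12 over 80%. The genes differed in how many pairs lay outside both classes: 4 of 11 in *LIG1*, a DNA ligase, 5 of 19 in *SUVH6* and 5 of 21 in *SUVH4*, also called *KYP*, against 0 of 10 in *CMT3* and 1 of 71 in *DME*.

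The 3 genes silenced by methylation had 38 pairs with 23 under 20% and 6 over 80% on both strands. *SDC*, an F-box gene, had 2 pairs over 80% on both strands at 20 and 23 bp from its start and 12 under 20% from 889 bp on. *FWA*, a homeodomain gene silenced in leaves, had 11 of 19 pairs under 20% and 3 over 80% in Col-0. At its 7 homologous pairs, 7 were under 20% on both strands in Ler-0 and 2 in Col-0. *QQS*, a regulator of starch content, had 5 pairs, none of them under 20%.

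**Figure D4:**
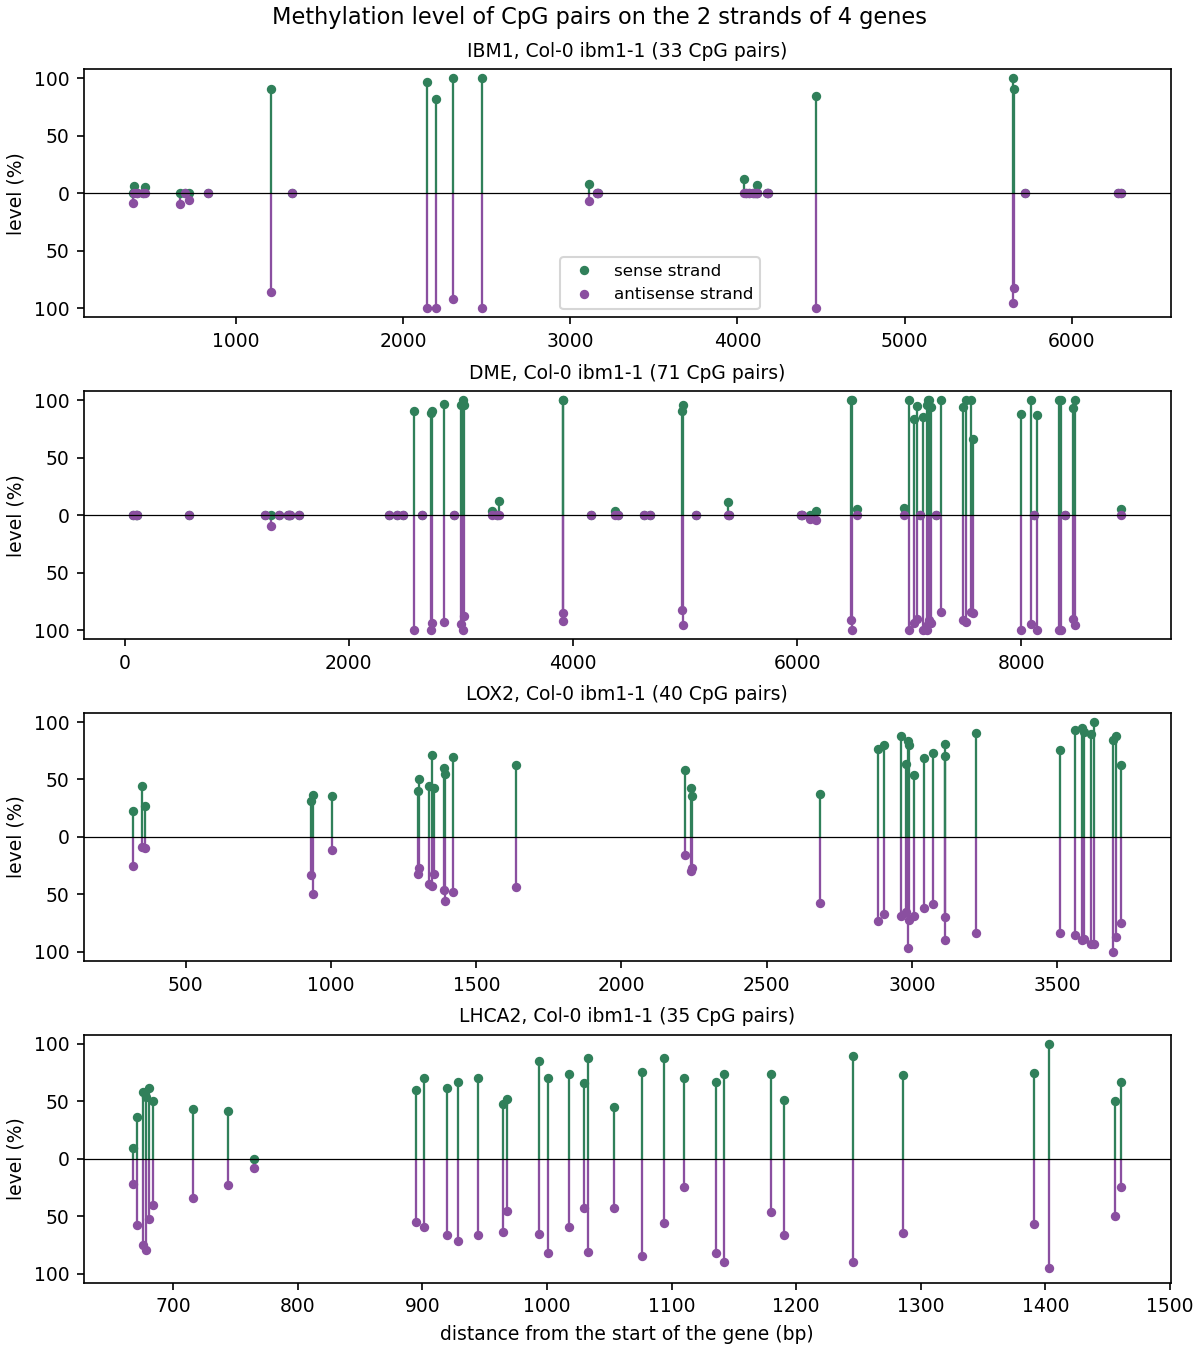
Methylation level (percent) of the sense strand (upward) and the antisense strand (downward) of each CpG pair against the distance from the start of the gene (bp) for *IBM1*, *DME*, *LOX2* and *LHCA2* in Col-0. In *IBM1* and *DME* the pairs are nearly all full or empty on both strands alike, while 23 of 40 pairs of *LOX2* and 24 of 35 of *LHCA2* are at 20-80% on both.

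Where the bases beside the CpG differ between the strands, the mean levels differed slightly at most combinations of bases. The mean level of the first strand minus that of the second was 1.18 points in Ler-0 and 1.43 points in Col-0 for ACGA against TCGT, and 1.31 points in Ler-0 and 1.59 points in Col-0 for GCGA against TCGC. It was -1.34 points in Ler-0 and -1.29 points in Col-0 for CCGC against GCGG. For ACGG against CCGT it was 0.63 points in Ler-0 and 0.68 points in Col-0. The strands of ACGC against GCGT hardly differed, with 0.11 points in Ler-0 (interval 0.045 to 0.18), positive on 3 of the 8 contigs compared, and -0.0052 points in Col-0 (-0.072 to 0.061), positive on 2 of 5 chromosomes. At sites that read the same on both strands with these bases included, the plus-strand and minus-strand means lay within 0.08 points of each other. The sign held on all 5 chromosomes of Col-0 for each of the first 3 contrasts. In the chloroplast, GCGA exceeded TCGC by 1.00 points in Ler-0 and 1.09 points in Col-0, and CCGC was lower than GCGG with a difference of -2.07 points in Ler-0 and -1.67 points in Col-0. Both contrasts thus had the same sign in DNA with little or no CpG methylation. CCGA against TCGG did not, with 0.29 points in Ler-0 and 0.61 points in Col-0 in nuclear pairs, but -0.36 points in Ler-0 and -0.56 points in Col-0 in the chloroplast. At nuclear pairs over 80% on both strands GCGA exceeded TCGC by 0.84 points in Ler-0 and 0.91 points in Col-0, while CCGC against GCGG gave -0.38 points in Ler-0 and 0.016 points in Col-0. Any part of bisulfite conversion in the nuclear values was not tested.

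Pairs with CpCpG on 1 strand only carry CpGpG on the other. The internal cytosine of CpCpG had a mean level of 59.0%, against 59.5% for its partner, in the 186186 such pairs of Ler-0, a difference of -0.485 points (interval -0.519 to -0.451). In the 235114 such pairs of Col-0 the means were 50.4% and 50.7%, a difference of -0.357 points (-0.389 to -0.324). Of 26 Ler-0 contigs with at least 2000 such pairs 3 had the opposite sign, and of the 5 chromosomes of Col-0 none did. By feature the difference was -0.712 points in protein-coding genes of Col-0, 0.150 points in pseudogenes and transposable element genes and 0.311 points between genes. It was most negative at unmethylated pairs: among pairs whose strand levels had a mean of 0 to 20% it was -1.20 points in Ler-0 and -1.15 points in Col-0, and among those at 80 to 100% it was -0.0812 points in Ler-0 and 0.234 points in Col-0. At 0 to 20% the means were 1.21% against 2.41% in Ler-0 and 1.12% against 2.27% in Col-0. In the chloroplast the CpCpG strand was also the lower one for CCGC against GCGG and for CCGA against TCGG. There CCGT lay below ACGG by 0.41 points in Ler-0 and 1.13 points in Col-0. Any part of bisulfite conversion in the nuclear difference was not tested.

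The external cytosine of CpCpG lies in the CpHpG context and has no partner in a CpG pair, so it gives a measure that the classes did not use. Its pooled level was lowest, 1.30% in Ler-0 and 1.37% in Col-0, where the internal cytosine and its partner were both under 20%, a value close to the chloroplast level. It was 15.9% in Ler-0 and 16.3% in Col-0 where both were at 20-80%, and 35.4% in Ler-0 and 33.8% in Col-0 where both were over 80%. With the internal cytosine at 20-80%, the external one was at 8.36% in Ler-0 and 9.88% in Col-0 when the partner was under 20%, and at 22.3% in Ler-0 and 23.2% in Col-0 when the partner was over 80%. The level of the internal cytosine itself was held only to the 20-80% class here. Its mean was 31.2% in Ler-0 and 30.4% in Col-0 when the partner was under 20%. When the partner was over 80%, its mean was 73.1% in Ler-0 and 73.8% in Col-0. A separate relation to the other strand was therefore not tested. Among pairs in opposite classes the numbers were small: with the internal cytosine over 80% and the partner under 20%, the external level was 38.0% over 14 pairs in Ler-0 and 28.9% over 27 pairs in Col-0, and with the reverse it was 30.4% over 11 pairs in Ler-0 and 53.2% over 2 pairs in Col-0. The 13 opposite pairs of Col-0 with aagtccgtatga all have CpCpG on the strand over 80%. They can thus be among the 27, and how many were was not counted.

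**Figure D5:**
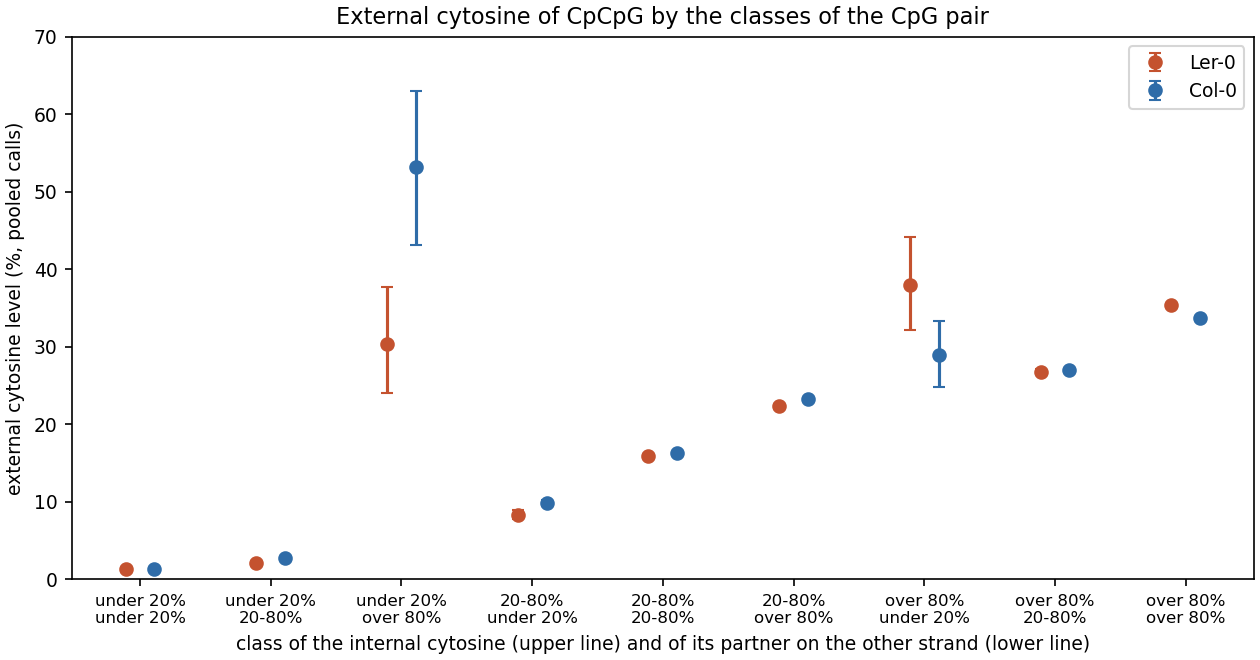
Pooled methylation level of the external cytosine of CpCpG (y axis, percent) by the class of the internal cytosine and the class of its partner on the other strand (x axis) in Ler-0 and Col-0; bars are 95% Wilson intervals over calls. The level is 1.30% in Ler-0 and 1.37% in Col-0 where both are under 20%, and 35.4% in Ler-0 and 33.8% in Col-0 where both are over 80%; the wide bars belong to pairs in opposite classes.

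Non-CpG methylation within 100 bp of a pair, pooled over features, followed its class. The pooled CpHpG level was 8.13% in Ler-0 and 4.85% in Col-0 around pairs under 20% on both strands, 30.9% in Ler-0 and 22.8% in Col-0 around pairs at 20-80% on both, and 49.7% in Ler-0 and 41.0% in Col-0 around pairs over 80% on both. The pooled CpHpH level for the same 3 groups was 1.55%, 7.64% and 11.4% in Ler-0, against 1.24%, 6.99% and 10.8% in Col-0. The features of Col-0 differed in this. In protein-coding genes CpHpG was at 4.95% around pairs under 20%, 13.9% around pairs at 20-80% and 32.2% around pairs over 80%, and in intergenic sequence at 3.68%, 24.4% and 43.5%. In pseudogenes and transposable element genes the values were 6.08%, 41.0% and 45.6%, so that pairs at 20-80% there lay close to pairs over 80%. For CpHpH the pairs at 20-80% lay close to those over 80% in both kinds of gene, with 4.54% and 4.77% in protein-coding genes and 10.99% and 12.7% in pseudogenes and transposable element genes. All these levels pool calls, so deep sites weigh more. The 9974 pairs at 20-80% in protein-coding genes had a median of 15.5 reads per cytosine. AT3G41762 had 86 pairs at 20-80%, with medians of 1417.5 reads on the plus and 1047.5 on the minus strand. What part such deep sites had in the levels was not tested.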

How the data were processed

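Genomic DNA (150 ng) of 2 libraries was bisulfite converted, sequenced as read pairs, and aligned by the authors with Bismark to TAIR10 (Col-0) or to the PacBio assembly of Ler-0, with duplicated reads collapsed. The submitters' processing notes also name Trimmomatic, with versions of either tool not given in the sources used here. Deposited cytosine reports hold, for every cytosine, raw counts of methylated and unmethylated calls as the authors made them, with no normalization. Reads of both strands were kept separate by this calling, a base change in the sample is read as a change of methylation, and reads from collapsed repeat copies are added together.

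From these counts, pairs with at least 8 reads on both cytosines were taken from the 5 nuclear chromosomes of Col-0 and from 535 nuclear contigs of 545 in Ler-0, where 7 were chloroplast and 3 mitochondrial by shared 61-base words with TAIR10. Genes came from the RefSeq annotation of TAIR10, in which transposable element genes stand among the pseudogenes. The Ler-0 sequence itself was rebuilt only in part, from the cytosine positions and their contexts, with A and T as 1 letter. Shares have 95% Wilson intervals, and intervals of mean differences come from binomial counting error. Each pair was tested by the two-sided exact test of Fisher on its counts, and p-values were adjusted after Benjamini and Hochberg over the pairs of each library. There was 1 library per ecotype, so p-values compare reads of strands in a library and not plants. Named genes were the protein-coding genes with at least 30 pairs and the highest shares of called pairs (10), of pairs at 20-80% on both strands (10) and over 80% on both (5), the pseudogenes or transposable element genes with the highest shares of called pairs (5), and 19 genes in 4 lists (maintenance of CpG methylation, CpHpG loop, demethylases, silenced genes). Homologous pairs in opposite classes the same way in both libraries were also to be named, and there were 0. Members and lists were chosen with earlier results of these data known. Alternatives changed the read minimum, strand depth ratio, depth limit, repeat filter, class limits and weighting. Python 3.11.15, numpy 2.4.6, pandas 2.3.3, scipy 1.17.1, numba 0.67.0 and matplotlib 3.10.9 were used, and the computation was tested on simulated data.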

Additional observations from a re-analysis of the deposited data

Results flagged for a closer look

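Mitochondrial pairs, which none of the comparisons between nuclear pairs used, carried intermediate levels in Col-0. Of 4443 pairs with at least 8 reads on both cytosines, 2226 (50.1%) were at 20-80% on both strands, and the pooled level was 25.01% on the plus strand and 24.3% on the minus strand. In Ler-0 the mitochondrial contigs had 0 of 1282 pairs at 20-80% on both strands and pooled levels of 1.60% on the plus and 1.67% on the minus strand. These contigs held 3061 CpG pairs in all, against 13697 in the mitochondrial sequence of Col-0, so the values do not cover the same sites. Chloroplast pairs at 20-80% on both strands numbered 0 in Ler-0 and 0 in Col-0, with pooled levels of 1.35% on the plus and 1.44% on the minus strand in Ler-0 and 1.35% on the plus and 1.46% on the minus strand in Col-0. This was the only result flagged, on account of a signal above the level of the chloroplast pairs, and its cause was not tested.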

How the results depend on the processing

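The share of pairs in the same class was 91.7% in Ler-0 with a minimum of 5 reads, 93.7% in Ler-0 and 88.6% in Col-0 with 12 reads, 93.2% in Ler-0 and 89.8% in Col-0 with at most a 2-fold ratio of strand depths, and 93.2% in Ler-0 and 89.4% in Col-0 with unique windows only. It was 76.6% in Ler-0 and 74.5% in Col-0 with class limits of 10% and 90%, 97.1% in Ler-0 and 95.9% in Col-0 with 30% and 70%, and 88.4% in Ler-0 and 84.2% in Col-0 with each cytosine reduced to 8 reads. The share in opposite classes was 0.0186% in Ler-0 and 0.0111% in Col-0 with 5 reads, 0.00216% in Ler-0 and 0.000773% in Col-0 with limits of 10% and 90%, 0.0694% in Ler-0 and 0.0447% in Col-0 with 30% and 70%, 0.0261% in Ler-0 and 0.0187% in Col-0 with 8 reads, and 0.00448% in Col-0 with unique windows. Called strand differences numbered 84 in Ler-0 and 340 in Col-0 with at most a 2-fold depth ratio, 71 in Ler-0 and 53 in Col-0 without the deepest 1% of pairs, 346 in Col-0 with unique windows, and 116 in Col-0 without the 6 windows of 500 kb that held most calls, an alternative chosen after seeing the data. The CpCpG minus CpGpG difference was -0.521 points in Ler-0 with 5 reads, -0.363 points in Ler-0 and -0.247 points in Col-0 with 12 reads, -0.535 points in Ler-0 and -0.458 points in Col-0 with at most a 2-fold depth ratio, -0.391 points in Col-0 with unique windows, and -1.06 points in Ler-0 and -0.802 points in Col-0 with pooled calls. The sense minus antisense difference was -0.111 points with 12 reads and reversed to 2.14 points with pooled calls, where deep pairs weigh more; the cause was not tested. The other 30 values of these results moved by less than their counting interval or 1.5 times, among them the count of 0 homologous pairs under each alternative, and of 24 values split by feature 11 moved further. No paired analysis was possible because each ecotype had 1 library.

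Depth limits these values: with 8 reads a level moves in steps that put many cytosines near a class limit, and a pair with 8 reads on each strand cannot pass the adjusted test even where the strands differ fully. Called pairs therefore sample deep sites, and 607 of the 794 of Col-0 had at least 50 reads on the shallower strand. Of the called pairs, 2 of 178 in Ler-0 and 22 of 794 in Col-0 had a homologous pair with enough reads in the other library, of which 0 in Ler-0 and 15 in Col-0 had the same sign there.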
